A study of Rattus norvegicus with 7 samples.

Results

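miR-21 was measured through its 2 mature arms, miR-21-5p and miR-21-3p, in rat primary skeletal muscle cells that differentiated with or without interleukin-6 (IL-6). The arms were taken by name from the 719 miRNAs on the array, and all 6 of their probes are described. The cells came from limb muscle of newborn rats, were bought frozen from a culture collection, and were sampled on day 11 after differentiation was induced with horse serum. The 3 control samples were untreated, and the 4 IL-6 samples had recombinant IL-6 at 1 ng/ml through those 11 days. The titles and the series design give these groups, whereas the growth text of every sample, controls included, mentions IL-6. Whether the samples of a group are separate cultures is not in the labels, and the p-values below rest on the spread among these 7 samples alone.

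IL-6 binds a receptor that signals through gp130 and JAK kinases, and the kinases phosphorylate STAT3, a transcription factor that then moves to the nucleus. In several cell types STAT3 binds upstream of the miR-21 gene and raises its transcription. The primary transcript is cut to a hairpin and then to a duplex. The 5p arm is the one usually kept as the guide in Argonaute, where it represses mRNAs such as those of Pdcd4 and Spry1, while most of the 3p arm is degraded. In skeletal muscle miR-21 is known for its response to denervation and in fibrosis, and fibroblasts express it as well.

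The hairpin shows where both arms lie, and the arms carry the seeds through which they act. RefSeq places the rat gene, Mir21, at chr10:71902600-71902691 on the minus strand of GRCr8. The protein-coding gene nearest to it is Vmp1, 532 bases away. The first line below is the 92-base hairpin with both arms in capitals, and the next lines are the arms with the seed, bases 2 to 8, in capitals.
Mir21 hairpin: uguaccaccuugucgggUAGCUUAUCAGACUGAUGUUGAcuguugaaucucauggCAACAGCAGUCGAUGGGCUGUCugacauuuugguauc
rno-miR-21-5p: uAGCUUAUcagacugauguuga
rno-miR-21-3p: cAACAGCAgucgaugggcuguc
Each arm is 22 bases long, at bases 18 to 39 of the hairpin for 5p and 56 to 77 for 3p. No other rat mature miRNA of the RefSeq table had either seed. That table holds 651 of the 719 miRNAs on the array.

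The probes matter here because the arms were read with probes of different length. They are printed with the bases beyond the shortest probe of the arm in capitals. All of them pair with the 3′ end of the arm and stop before its first base.
miR-21-5p, 19 bases: tcaacatcagtctgataag
miR-21-5p, 20 bases: tcaacatcagtctgataagC
miR-21-3p, 12 bases: gacagcccatcg
miR-21-3p, 13 bases: gacagcccatcgA
miR-21-3p, 14 bases: gacagcccatcgAC
miR-21-3p, 15 bases: gacagcccatcgACT
The 20-base probe pairs with bases 3 to 22 of miR-21-5p, and the 15-base probe with bases 8 to 22 of miR-21-3p. The longest run of bases that another rat miRNA shares with a probe's target was 9 for the 5p arm (miR-541-5p) and 8 for the 3p arm (miR-433-3p). Each 5p probe had 10 spots and each 3p probe 5 spots per array.

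Each sample had its own 1-colour Agilent array. Control arrays detected 174 to 185 miRNAs and IL-6 arrays 179 to 207, and both arms of miR-21 were detected on all 7. All arrays lay on 1 slide, with the controls in 1 row and the IL-6 samples in the other; row and treatment cannot be told apart. Columns 1, 3 and 4 of the slide held a sample of each group. The scale factors of the arrays, taken from probes well above background, ran from 0.852 to 1.25. The 7 muscle-specific miRNAs of the marker list, miR-1 and miR-133a among them, were detected on no array, so the labelled cell type is not borne out by them. All 5 markers of fibroblasts and smooth muscle were detected on every array; their summed scaled signal was 21893 to 23930 in control and 19596 to 23140.0 with IL-6. None of the 5 passed between the groups, against 9.39% of all 181 tested miRNAs, and 5 are too few to tell 0 calls from that share. The part of such cells in the level of miR-21 was not tested.

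miR-21-5p gave a strong signal in untreated and treated cells alike. On the 20-base probe, the scaled signal of the controls was 12137, 13367 and 14948 intensity units (replicates 1 to 3), and that of the IL-6 samples was 12583, 14095, 14060.4 and 14579.9 (replicates 1 to 4). The lowest and the highest of the 7 values were both controls, so the IL-6 samples lay inside the range of the untreated ones. The signals were 774 to 953 times the floor of 15.7 units that stands for the detection limit, and none of the 140 spots of this arm on the 7 arrays was saturated. Replicate 1 was the lowest array of either group. In bulk samples such as these, fewer cells that make a miRNA and less of it per cell cannot be told apart.

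miR-21-5p did not pass between IL-6 and control. The mean was 13484 ± 1409 (SD, n = 3) in control and 13829 ± 864 (n = 4) with IL-6, a log2 fold change of 0.04 ± 0.08 (SE; limma, Benjamini-Hochberg adjusted p = 0.839 over 181 tested miRNAs). The 95% confidence interval of the fold change ran from -0.17 to 0.24 on the log2 scale, or from -10.8% to 18.5%. That interval is the limit these arrays set on a response of the guide arm, with the scaling used. Of the 181 miRNAs, 9.39% passed the same test, 4.97% higher and 4.42% lower with IL-6, and neither arm was among them. That share is not stable: the 17 calls became 0 with slide column as a block or without control replicate 1, and 47 with array weights (limma). The 9 higher and 8 lower calls were 7 and 11 with quantile normalization and 4 and 0 with spike-in scaling.

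**Figure D1:**
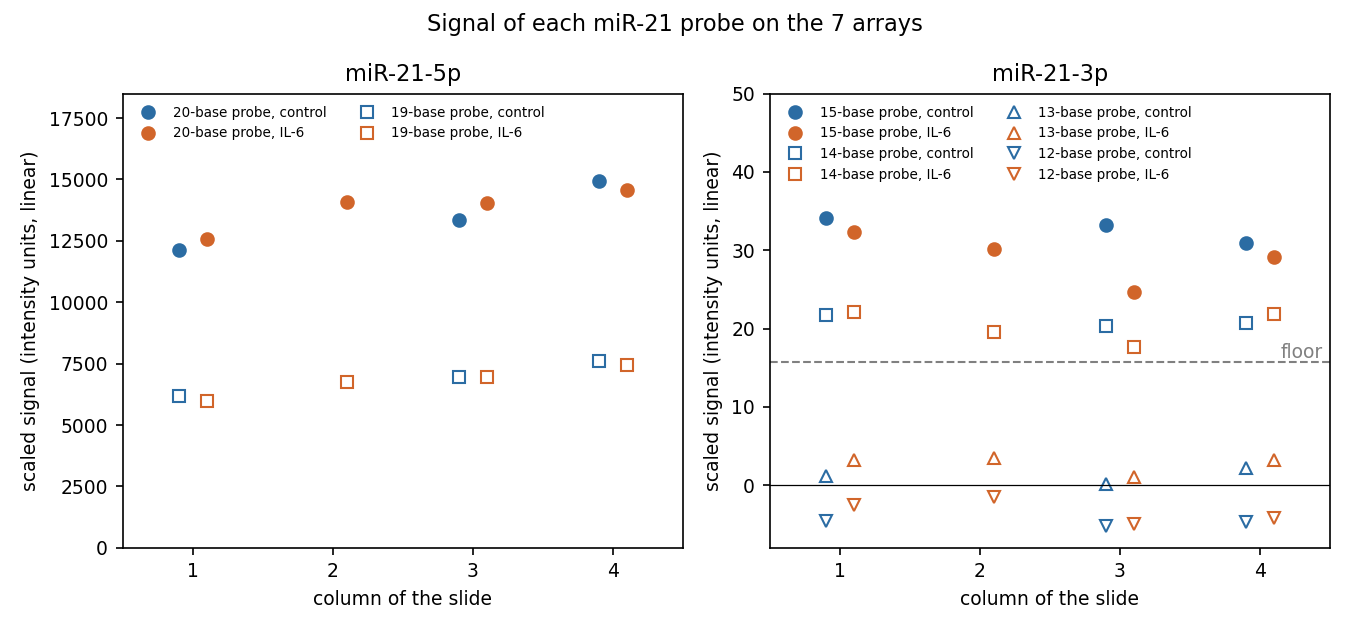
Scaled signal (intensity units, linear axis) of the 2 probes of miR-21-5p and the 4 probes of miR-21-3p against the column of the slide, 1 point per array, control in blue and IL-6 in orange; the dashed line is the floor of 15.7 units. The 20-base probe gave 12137 to 14948 units in control and 12583 to 14579.9 with IL-6, while the 12-base and 13-base probes of the 3p arm lay below the floor on every array.

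The spread of miR-21-5p between arrays was larger than the error that its spots left on the mean of an array. Its 10 spots per array had a coefficient of variation of 10.4% to 14.7%, which leaves a standard error of 0.06 on the log2 scale for the mean of an array. The SD between arrays of a group was 0.12, or 2.06 times that error. Of the tested miRNAs, 33.7% had a larger standard error than miR-21-5p. At its spread a log2 fold change of 0.37, or 1.30-fold, would have been needed to reach the unadjusted p of the weakest call, 0.00419 (limma).

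In each slide column that held both groups, control and IL-6 were close in miR-21-5p, but closeness was not particular to a column. Control replicate 2 of column 3, at 13367 units, lay near IL-6 replicate 3 of its column (14060) and IL-6 replicate 2 of column 2 (14095). Over the 181 miRNAs, deviations from the group means correlated at 0.52, 0.19 and 0.13 between the control and the IL-6 array of columns 1, 3 and 4. Pairs from different columns ran from -0.44 to 0.29, so only column 1 lay above all of them. Column 1 held replicate 1 of both groups, so column and replicate number cannot be told apart there. IL-6 minus control was 0.05 in column 1, 0.07 in column 3 and -0.04 in column 4 on the log2 scale, against a distance of 0.30 between the lowest and the highest control. With slide column as a block the log2 fold change was 0.03 ± 0.03 (limma, Benjamini-Hochberg adjusted p = 0.642), and its 95% interval ran from -0.07 to 0.13. The median standard error of all tested miRNAs went from 0.07 to 0.05 in that fit. Column 2 held no control, and its IL-6 sample does not enter that estimate.

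The other 5p probe gave the same picture. Its scaled signal was 6926 ± 721 in control and 6781 ± 611 with IL-6 (SD, n = 3 and 4), a log2 difference of -0.03. On each array the 20-base probe was 1.92 to 2.11 times as bright as the 19-base probe, which lacks only the base that pairs with base 3 of the miRNA. The ratio was 1.95 ± 0.027 in control and 2.04 ± 0.066 with IL-6 (SD, n = 3 and 4), and 3 of the 4 IL-6 arrays lay above all controls. That difference between the probes was not tested.

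**Figure D2:**
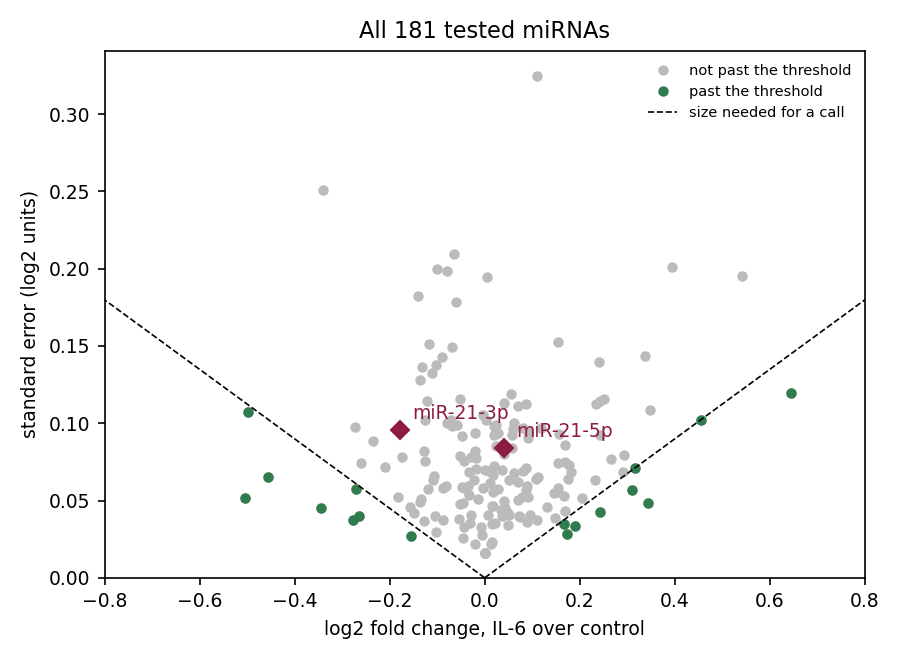
Log2 fold change of IL-6 over control (x axis) against its standard error (y axis, log2 units) for the 181 tested miRNAs, with those past the threshold in green and both miR-21 arms as diamonds; the dashed lines mark the size that reaches the p of the weakest call. miR-21-5p at 0.04 and miR-21-3p at -0.18 both lie above the lines, where no call is made.

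miR-21-3p was measured close to the detection limit. On its brightest probe, of 15 bases, the scaled signal of the controls was 34.1, 33.2 and 30.9 units (replicates 1 to 3), and that of the IL-6 samples was 32.3, 30.1, 24.6 and 29.2 (replicates 1 to 4). These are 1.57 to 2.17 times the floor. Of the 4 IL-6 values, 3 lay below all controls and 1, replicate 1, lay among them, so the groups overlap. The groups did not overlap for 22.1% of the tested miRNAs.

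The difference of the 3p arm did not pass either. The mean was 32.8 ± 1.64 (SD, n = 3) in control and 29.1 ± 3.22 (n = 4) with IL-6, a log2 fold change of -0.18 ± 0.10 (SE; limma, Benjamini-Hochberg adjusted p = 0.318). The 95% interval ran from -0.41 to 0.05, or from -24.9% to 3.88%. The size needed to reach the p of the weakest call was 1.34-fold for this arm. Within slide columns 1, 3 and 4 IL-6 minus control was -0.08, -0.43 and -0.08, so column 3, which holds IL-6 replicate 3, gave the largest difference. With slide column as a block the log2 fold change was -0.20 ± 0.10 (limma, Benjamini-Hochberg adjusted p = 0.327). Without IL-6 replicate 3 the log2 fold change was -0.10 ± 0.06. The 95% interval excluded 0 with array weights (-0.28 ± 0.09) and when IL-6 replicate 1 was left out (-0.23 ± 0.09), and neither passed after adjustment (limma, Benjamini-Hochberg adjusted p = 0.0779 and 0.161).

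Signal of the 3p arm depended on the length of the probe. The 12-base probe (-5.24 to -1.51 scaled units) and the 13-base probe (0.190 to 3.43) were above background on no array, so they give no fold change. The 14-base probe was above background on all 7, with 20.9 ± 0.745 in control and 20.3 ± 2.13 with IL-6, a log2 difference of -0.05. The 15-base probe was 1.34 to 1.64 times as bright as the 14-base probe on the same array. The 2 readable probes thus gave -0.18 and -0.05 for the same arm.

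The arms also differed in how they followed the brightness of the arrays. Across the 7 arrays the unscaled log2 signal correlated with the log2 scale factor at 0.96 for miR-21-5p and at 0.60 for miR-21-3p. After scaling these values were 0.71 and -0.57, and the correlation between the arms was -0.56 (0.52 before scaling). All of them are descriptions over 7 arrays that share the scale factor. A part of array brightness in the 3p difference was not tested. In the settings without scaling and with spike-in scaling the 3p fold change was near 0, at -0.0012 and 0.0058.

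Scaling moved both arms with all other miRNAs. Over 7 settings that differ in scaling, the deposited value table among them, the log2 fold change of miR-21-5p ran from -0.10 to 0.22 and the median of all tested miRNAs from -0.12 to 0.20. Relative to that median miR-21-5p was 0.02 to 0.08 and miR-21-3p was -0.20 to -0.17 in these settings. The widest upper limit for miR-21-5p was 1.61-fold, in the deposited value table, which is not scaled between arrays. Neither arm passed in any setting tried (limma, Benjamini-Hochberg adjusted p from 0.305 to 1 for 5p and from 0.0779 to 1 for 3p).

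**Figure D3:**
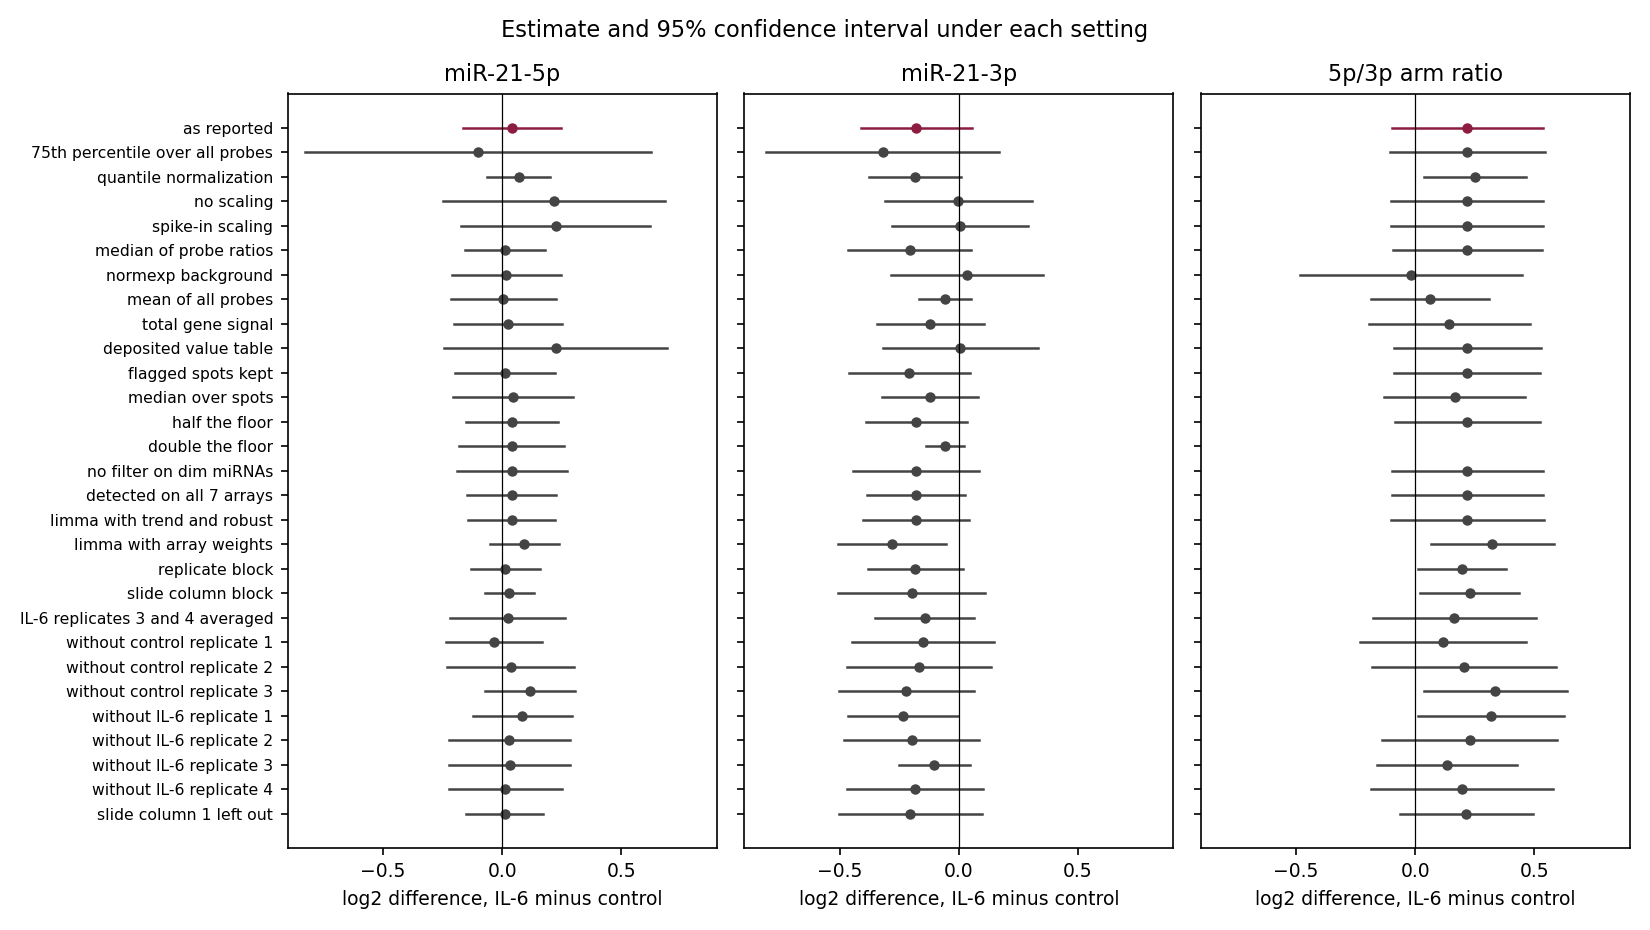
Log2 difference of IL-6 minus control (points) with its 95% confidence interval (bars) for miR-21-5p, miR-21-3p and the log2 ratio of the arms, as reported (red) and under each other setting; the arm ratio has no value with double the floor. Every interval of miR-21-5p includes 0, and its estimates run from -0.10 to 0.22. The interval excludes 0 for miR-21-3p in 2 settings and for the arm ratio in 6, none of which passed after adjustment.

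A single scale factor per array cancels in the ratio of the arms. The signal of the 20-base 5p probe divided by that of the 15-base 3p probe was 356, 402 and 483 in the controls (replicates 1 to 3) and 389, 468, 570.4 and 500.0 with IL-6 (replicates 1 to 4). The lowest value was a control and the 2 highest were IL-6 samples, and the groups overlap. Because the probes differ in length and pair with different bases, the level of the ratio is not a ratio of molecules, and only its difference between groups was compared.

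The arm ratio of miR-21 did not pass between the groups. On the log2 scale it was 8.68 ± 0.22 (SD, n = 3) in control and 8.90 ± 0.23 (n = 4) with IL-6, a difference of 0.22 ± 0.14 (SE; limma over 17 hairpins, Benjamini-Hochberg adjusted p = 0.325). The 95% interval ran from -0.10 to 0.53, so in this fit the arrays allow a ratio up to 1.45 times that of the controls. Here limma shared the variance among the 17 hairpins, whose median standard error was 0.08. The limit of 1.45 thus does not rest on the spread of miR-21 alone. The exact two-sided permutation p was 0.229 over the 35 splits of the arrays, of which 0.0286 is the smallest possible value. These tests take no account of the slide column. Within slide columns 1, 3 and 4 the difference was 0.13, 0.50 and 0.05, above 0 in each. With slide column as a block it was 0.23 ± 0.10, with a 95% interval from 0.02 to 0.43 that excludes 0 (limma, unadjusted p = 0.0323, Benjamini-Hochberg adjusted p = 0.142). The standard error in that fit equalled the median of the 17 hairpins, as limma shared the variance among them. The interval of the column block thus does not rest on the spread of miR-21 alone either. The replicate block below was alike, with a standard error of 0.09 for miR-21 and a median of 0.09. Quantile normalization, which does not cancel in the ratio, gave 0.25 ± 0.10 (limma, unadjusted p = 0.0254, Benjamini-Hochberg adjusted p = 0.0718). The interval also excluded 0 with the replicate block, with array weights, and when control replicate 3 or IL-6 replicate 1 was left out, and it included 0 in the other 21 of 27 alternatives. The difference depended on the probes. With the mean of all probes of an arm it was 0.06 ± 0.11 (SE, limma), with a 95% interval from -0.19 to 0.31. That mean includes the 3p probes that were above background on no array. The 19-base 5p probe and the 14-base 3p probe had similar log2 differences, -0.03 and -0.05. The value of 0.22 thus holds for the brightest probe of each arm. With normexp background, which adds 50 units to every spot, the difference of the arm ratio was -0.02. What moved it in that setting was not tested.

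Other hairpins with both arms above the floor gave the frame for that value. Of the 17 hairpins, 0 passed (0%) and 4 had an unadjusted p under 0.05 (limma); the smallest Benjamini-Hochberg adjusted p was 0.0773, and 17.6% had groups that did not overlap. Their differences ran from -0.28 to 0.25 with a median of 0.03, and miR-21 had the 4th largest in size. Of the 17, 5.88% had a larger standard error than miR-21.

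**Figure D4:**
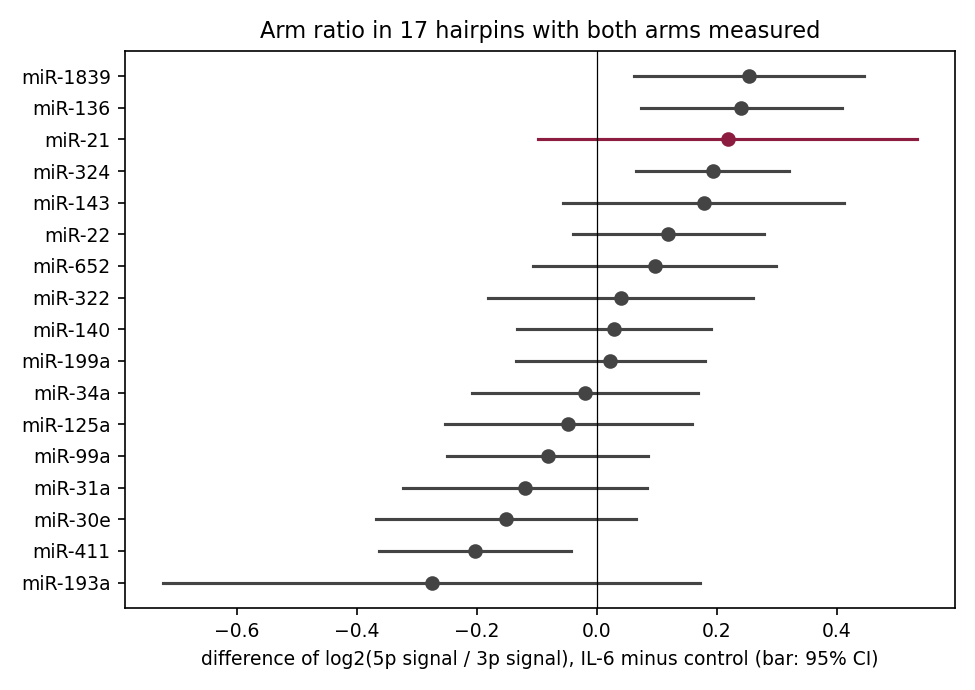
Difference of log2(5p signal / 3p signal) between IL-6 and control (points) with 95% confidence intervals (bars) for the 17 hairpins with both arms above the floor, miR-21 in red. miR-21, at 0.22, has an interval from -0.10 to 0.53 that includes 0, and no hairpin passed after adjustment.

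Other miRNAs tied to STAT3 or IL-6 in the literature were measured on the same arrays. The list of 12 holds targets of STAT3, miRNAs that it represses, and let-7a, which acts on IL-6 itself. Of these, miR-155-5p was not analysed here, miR-146b-5p and miR-204-5p were detected on no array, and 9 were tested. None was called higher or lower with IL-6 (0 of 9 in limma, against 9.39% of all tested miRNAs, a share that fell to 0 in some settings). A list of 9 is too short to tell 0 calls from that share. By unadjusted p under 0.05 there were 2 of 9 in limma, against 49 of 181. The median log2 fold change was 0.02, as it was for all 181.

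Among the list members with the highest signal, let-7a-5p had a log2 fold change of 0.02 ± 0.07, miR-34a-5p, which p53 induces and STAT3 represses, one of 0.02 ± 0.04, and miR-19b-3p of the miR-17-92 cluster one of -0.11 ± 0.07. miR-181b-5p, named after its value was seen, had the largest, 0.29 ± 0.07 (limma, Benjamini-Hochberg adjusted p = 0.0532). It was the only 1 of the 9 whose groups did not overlap, against 22.1% of all tested miRNAs. STAT3 induces the miR-181b-1 gene in transformed cells, and a part of STAT3 in the value seen here was not tested. miR-18a-5p was at the floor on all arrays and could not be called.

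**Figure D5:**
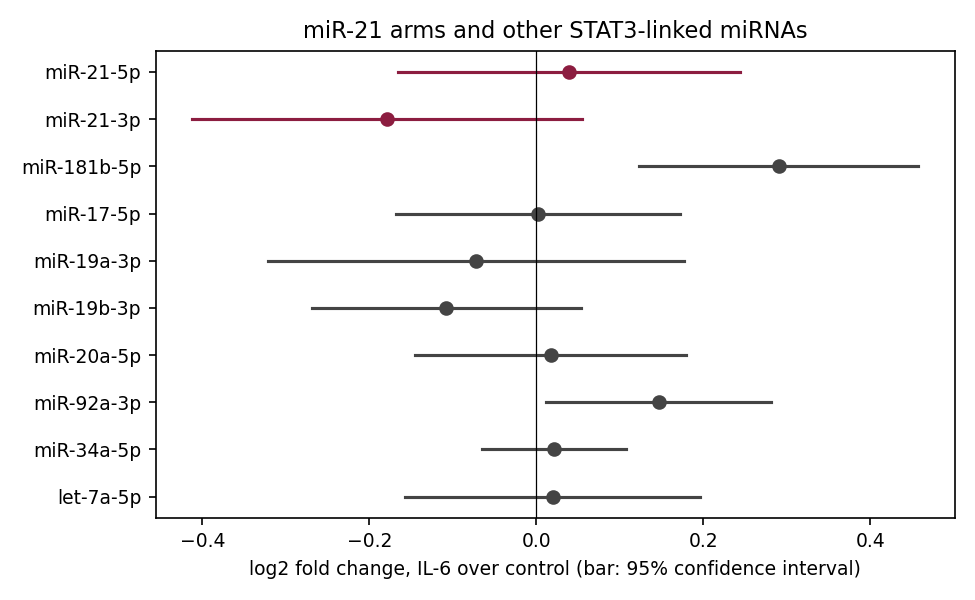
Log2 fold change of IL-6 over control (points) with 95% confidence intervals (bars) for both miR-21 arms (red) and the 8 list members above the floor. The interval of miR-21-5p, -0.17 to 0.24, includes 0, and miR-181b-5p has the largest value, 0.29.

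The miRNAs whose scaled log2 signal was most like that of miR-21-5p over the 7 arrays, among 155 above the floor, were miR-101b-3p (Pearson r = 0.976), miR-598-3p (0.973) and miR-136-3p (0.968). Their log2 fold changes were 0.07 ± 0.11, 0.04 ± 0.11 and 0.15 ± 0.15, and none passed. For miR-21-3p they were miR-664-3p (r = 0.850), miR-770-3p (0.846) and miR-1224 (0.833), with -0.26 ± 0.07, -0.10 ± 0.14 and -0.14 ± 0.13. None of these passed either, miR-664-3p included (limma, Benjamini-Hochberg adjusted p = 0.0839). The correlations share the arrays and their scale factors, and they are descriptions. The 2 arms had no neighbour in common, which their own correlation of -0.56 after scaling left little room for.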

How the data were processed

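Signals came from the scanner files of 7 Agilent rat miRNA arrays (3 control, 4 IL-6), 1 per sample, read with Feature Extraction (version 10.10.1.1 per the file headers). The deposited intensity is linear: the processed signal of a spot is background-subtracted by the authors' software and not scaled between arrays. On all 15095 spots, total probe signal and the deposited table hold the same value.

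Control spots and outlier spots (2.88% to 3.84%) were left out here, which removed 2 of 140 spots of miR-21-5p and 1 of 140 of miR-21-3p. The mean over a probe's spots was scaled to the 75th percentile of its array, taken over 268 probes that were well above background on each of the 7. Values under 15.7 units (the median over arrays of the lowest signal above background) were raised to that floor before log2 was taken. The brightest probe stood for a miRNA. The 181 miRNAs that all control arrays, or all IL-6 arrays, detected entered a fit of IL-6 against control (limma 3.58.1, R 4.3.3), called at a Benjamini-Hochberg adjusted p under 0.05. The log2 arm ratio was fitted likewise over 17 hairpins. Alternatives changed the scaling, background, probe and spot summary, floor, filter, variance model, blocks and arrays.

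Members, lists and tests were chosen with earlier results of these data known. Named were both arms, list members past the threshold or else the 3 of highest signal, the 3 miRNAs most like each arm, and hairpins past the threshold. Whether the replicate numbers of the titles pair the samples is not settled here, and the main fit does not pair by them. Deviations from the group means correlated at 0.52, -0.18 and 0.26 for numbers 1, 2 and 3 over 181 miRNAs. The pair of number 1 is also the pair of slide column 1. With the replicate block the median standard error of all tested miRNAs was 0.05, against 0.07 in the main fit. Lists of other cell types gave 0 of 2 endothelial, 0 of 6 epithelial and 0 of 2 neural markers detected on any array, while 4 of 5 blood markers were detected on none (summed scaled signal up to 0.587 in control and 14.0 with IL-6).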

Additional observations from a re-analysis of the deposited data

How the results depend on the processing

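The direction changed for miR-21-5p when the 75th percentile was taken over all probes (-0.10) and without control replicate 1 (-0.034; range -0.034 to 0.12 over the 7 fits that leave out an array). For miR-21-3p it changed with spike-in scaling (0.0058), the deposited value table (0.0060) and normexp background (0.035), and for the arm ratio with normexp background (-0.018). Without an array, miR-21-3p ran from -0.23 to -0.10 and the arm ratio from 0.12 to 0.34. In none of 28 alternatives for each arm and 27 for the ratio did a call change. With the replicate block miR-21-5p was 0.01 ± 0.05, miR-21-3p -0.18 ± 0.06 and the arm ratio 0.20 ± 0.09, and none passed (limma). With double the floor, miR-21-3p lay at the floor on 4 arrays and gave no arm ratio.

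The count of 17 miRNAs past the threshold became 0 with a 75th percentile of all probes, no scaling, normexp background, the deposited value table, no filter on dim miRNAs and the slide column block (limma, 1 to 52 with an unadjusted p under 0.05). It was 4 with spike-in scaling, 8 with total gene signal, 11 with double the floor, 47 with array weights, 3 with the replicate block and 6 with IL-6 replicates 3 and 4 averaged. Without an array it ran from 0 to 17: 0 without control replicate 1 (35 with an unadjusted p under 0.05, limma), 2 with control replicate 2 left out, 5 with IL-6 replicate 3 left out and 6 with IL-6 replicate 4 left out. Chosen after seeing the data, leaving out slide column 1 gave 1, with miR-21-5p at 0.01 ± 0.06.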
